A study of Rattus norvegicus with 12 samples.

Results

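The genes of microtubules, kinesin motors and neuronal intermediate filaments were followed in PC12 cells treated with the neuropeptide PACAP38. Members were the probes, control spots excluded, whose gene name on the array belongs to the tubulins, the main microtubule-associated proteins, the end-binding proteins, the stathmins, the neurofilament proteins with peripherin and internexin, Gap43, Dcx, the kinesins or the kinesin light chains. The rule gave 71 genes of the 33212 gene names on the array, read by 111 probes, 42 of the genes by a single probe. PC12 is an established line from a rat adrenal pheochromocytoma, a tumour of chromaffin cells, and grows neurites after PACAP. The treated cells received PACAP38 at 1e-07 M for 5, 10, 15, 30, 60 or 120 min, and each was set against untreated control cells of the same time point. No genotype or transgene distinguishes the groups, and the model is a single tumour line. RNA of each group was pooled (n = 6), and the treated and control pool of a time were read against each other on 2 arrays with exchanged dyes. Since these 2 arrays share their pools, a time point counts as 1 replicate; its 2 folds show the technical spread, and single time points were not tested.

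Microtubules are hollow filaments of alpha and beta tubulin dimers that start from gamma tubulin rings, grow and shrink at their ends, and form both the mitotic spindle and the core of a neurite. Microtubule-associated proteins and end-binding proteins stabilise and steer them, stathmins bind free tubulin, and kinesins walk along them with vesicles or, in dividing cells, move chromosomes and build the midbody. Neurofilaments are the intermediate filaments of axons, which set axon calibre, and their genes, with Gap43, are classic markers of neuronal differentiation.

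Throughout, the fold is the processed intensity of PACAP38 RNA over control RNA. A pair of folds gives first the array with PACAP38 in Cy5 and then the array with PACAP38 in Cy3, and a single fold is their geometric mean. Where several probes read 1 gene, the brightest stands for it. A probe was called measured at a time point when at least 1 of the RNAs was well above background on both arrays. The first rule for a call, after the study's methods, was a fold of 2 or more, or 0.5 or less, with a spot p-value below 0.01 on both arrays, and the second was a 1.5-fold difference on both arrays in the same direction for a measured probe. In the control channel 38.4 to 49.6% of an array's spots stood well above background, none was saturated, and the arrays lay on 3 slides with 2 time points each. The labelled cell type was borne out by its markers: all 8 chromaffin genes found on the array, among them Th, Dbh and Chga, were well above background in all 12 control readings. Among 15 markers of fibroblasts, glia, adrenal cortex, endothelium and leukocytes, 10 were at 0 of 12 readings, among them Col3a1, Sox10, Cyp11a1, Pecam1 and Ptprc, and the list's summed intensity was 395 to 725 in the control pools and 405 to 760 in the PACAP38 pools.

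Control PC12 cells already contained RNA of most of this machinery. Of the 71 members, 52 (73.2%) were well above background on both arrays of at least 5 of the 6 control pools, against 37.1% of all gene names on the array, and 51 of them in all 12 readings. All 5 neuronal intermediate filament genes, Nefl, Nefm, Nefh, Prph and Ina, were in that group before any treatment. So were Gap43, a growth cone protein, both end-binding protein genes, the 4 kinesin light chain genes and both gamma tubulins. Of the stathmins, Stmn1, Stmn2 and Stmn3 were detected in all 12 readings and Stmn4 in none.

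Related genes differed in whether they were detected. Dcx, which marks migrating young neurons, was at 0 of 12 readings, and the 3 probes of Map2, the dendritic microtubule-associated protein, were at 1, 0 and 0, whereas Mapt, its axonal counterpart tau, was at 12. Kif5b and Kif5c, heavy chains of conventional kinesin, were at 12 of 12 by their brightest probes, and the neuronal heavy chain Kif5a was at 0. The other probes of Kif5c were at 1 and 3, and those of Kif5b at 12 and 11. Among the transport kinesins 10 of 15 were detected, among the mitotic kinesins 9 of 11, and of Kif2a, Kif2b, Kif19 and Kif24, kept as a family of kinesins that take microtubules apart, Kif2a alone; Kif2c, which does so too, was counted with the mitotic ones. Tuba8, Kif4b, Kif12, Kif13b, Kif21b, Kif24, Kif27, Kif2b and Kif6 were at 0 readings as well, and Tubb4a, Kif15, Kif16b, Kif17, Kif19 and Kif26b were seen in 1 to 10. No fold is read for a gene with neither RNA measured: on such dim spots the 2 arrays could give opposite ratios, as in Tuba8 with folds of 3.93 and 0.22 after 5 min.

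**Figure D1:**
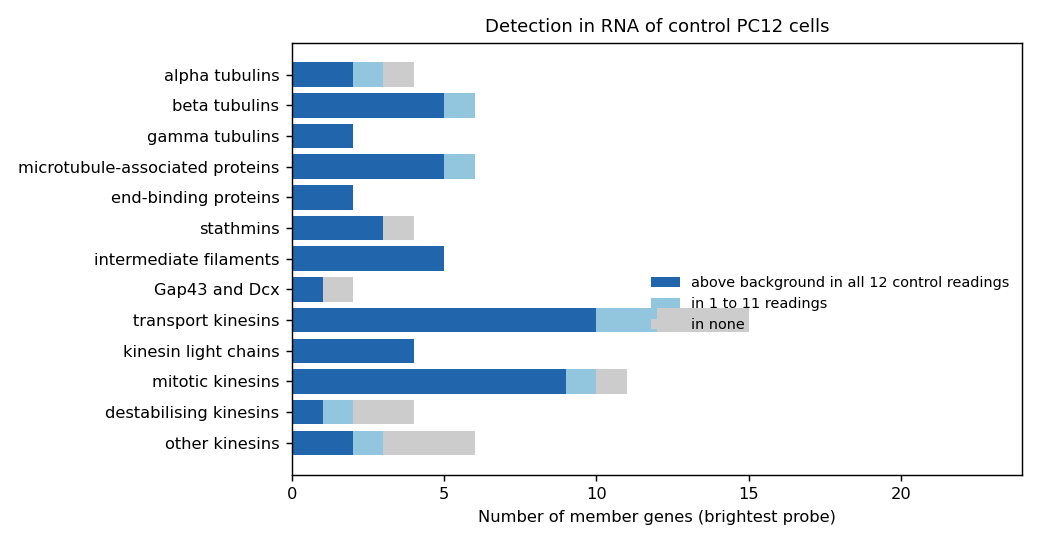
Number of member genes in each family by how many of the 12 control readings (6 pools, each in Cy3 and in Cy5) were well above background for the brightest probe. All 5 intermediate filament genes and all 4 kinesin light chains lie in the darkest class, and 12 genes were seen in no reading.

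Nearly all members stayed close to control for the first 15 min. At 5, 10 and 15 min no member passed either rule, and 53 of 54, 50 of 53 and 50 of 54 measured members lay within 1.25-fold of control. At 30 min Tuba4a alone was past 1.5-fold, among 52 measured members, where 1.14% of all measured probes were past it in that direction. By 60 min it was joined by Tuba3a, 2 of 55 measured members against 3.49% of all measured probes, and no member was past 1.5-fold lower, against 2.89%. At 120 min 32 of 54 measured members were still within 1.25-fold, while 3 were past the 1.5-fold rule in the higher and 6 in the lower direction.

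The 3 higher members at 120 min were the tubulins Tuba4a, Tuba3a and Tubb6, and the 6 lower ones were all kinesins: Kif14, Kif15, Kif20a, Kif20b and Kif23, which act in mitosis, and Kif3b. Over all measured probes 7.75% were past the rule in the higher and 10.3% in the lower direction, and the members' total was 9 of 54 (16.7%). By family, 5 of the 10 measured mitotic kinesins were past it lower, and 0 of the 5 intermediate filament genes, 0 of the 3 stathmins and 0 of the 5 microtubule-associated protein genes were past it in either direction by their brightest probes; differences between families were not tested. By the stricter 2-fold rule, 1 of 71 members was called at 60 min (1.25% of all probes), Tuba4a, and 6 at 120 min (3.48% of all probes), namely Tuba3a, Tuba4a, Kif14, Kif20a, Kif20b and Kif3b. Under normexp with loess the 1.5-fold count at 120 min was 1 higher and 5 lower, and with median centring 1 higher and 6 lower, with Tuba4a the higher gene both times, Kif15 no longer among the lower ones, and Kif18a among them with median centring.

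**Figure D2:**
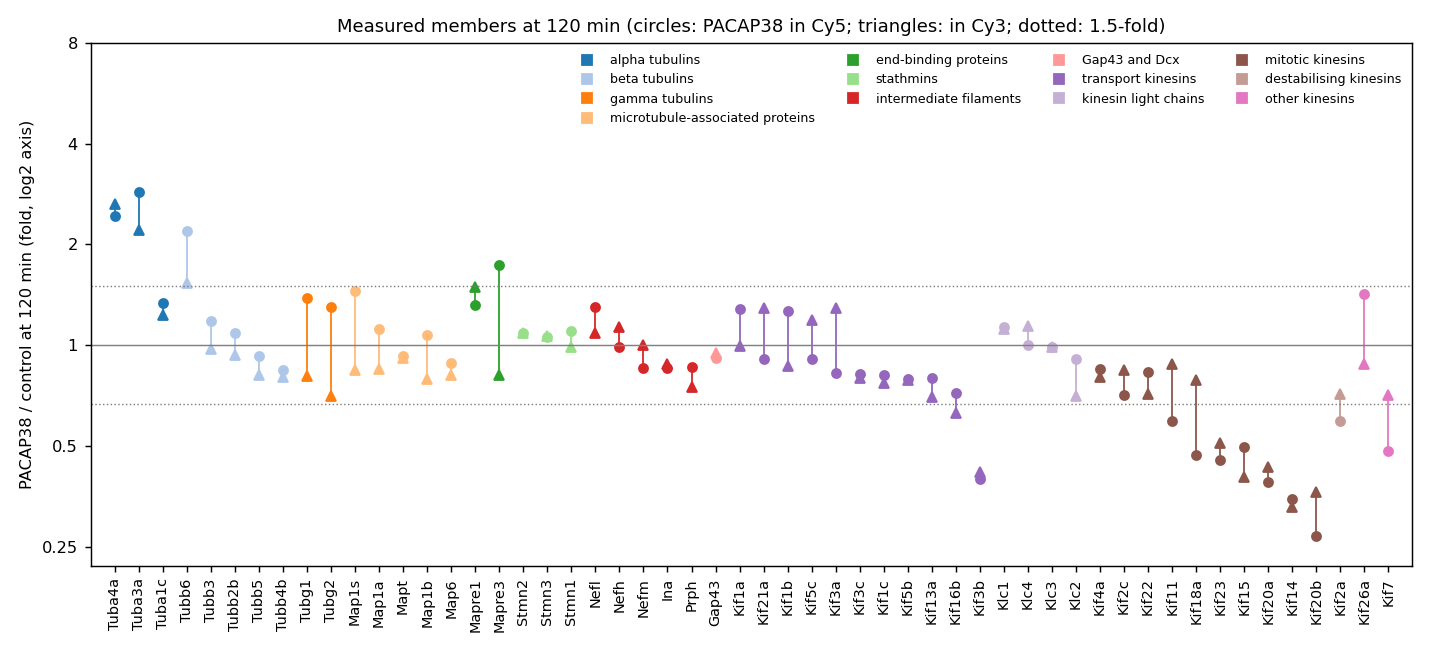
PACAP38 over control at 120 min for the 54 measured members, coloured by family; the circle and triangle of a gene are its 2 arrays and dotted lines mark 1.5-fold. Both arrays of Tuba4a, Tuba3a and Tubb6 lie above the upper line and those of 6 kinesins below the lower one; the points of Kif15 and Kif16b rest on PACAP38 RNA that was not well above background.

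The change over time was tested across the 6 time points by fitting the mean log2 fold of each on log2 minutes with limma, for 18719 probes of the array, 77 of them of 55 members. Of all probes, 8.37% had an adjusted p below 0.05. Among the member probes 4 (5.19%) did: Tuba4a, Tuba3a and 1 of the 2 probes of Nefl rose and Kif20a fell. Slide and time are partly the same in this design, because later time points lay on later slides. With slide as a block 0 member probes were called by limma (2 had an unadjusted p below 0.05), and with median centring 15 were, 3 that rose and 12 that fell, where 3241 of all 18719 probes were called, 710 that rose and 2531 that fell. The mean over all 6 time points, fitted the same way, called no member (limma, smallest adjusted p 0.493; 8 member probes had an unadjusted p below 0.05).

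Tuba4a encodes an alpha tubulin that, unlike most alpha tubulins, lacks the C-terminal tyrosine in its gene. It was the first member past 1.5-fold. Its probe, chr9:74496507-74496566 on the minus strand of rat build rn4, begins with these 30 of its 60 bases, shown because the earliest course rests on this single probe:

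Tuba4a probe: tggagccctgttcactgtgtttattgcaaa

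The folds of Tuba4a were 1.00 and 0.970 after 5 min, 0.995 and 1.08 after 10 min, 1.13 and 1.23 after 15 min, 1.56 and 1.86 after 30 min, 2.31 and 2.30 after 60 min, and 2.43 and 2.64 after 120 min. Both arrays were above 1 from 15 min on, and the later folds did not overlap those of the first 3 time points. It rose by 0.34 log2 units per doubling of time (SE 0.03, limma adjusted p = 0.00728, n = 6 time points). The call held without each time point in turn, with adjusted p up to 0.0451, and was lost with slide as a block (slope 0.25, adjusted p = 0.878). Within a slide the later time point exceeded the earlier by 0.07, 0.53 and 0.14 log2 units.

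Tuba3a, an alpha tubulin best known from testis, was dim, with control intensities of 37.2 to 148. Its folds were 1.78 and 0.687 after 5 min, 1.41 and 0.831 after 10 min, 1.49 and 1.15 after 15 min, 1.64 and 1.12 after 30 min, 2.12 and 1.68 after 60 min, and 2.87 and 2.20 after 120 min. The array with PACAP38 in Cy5 gave the higher fold at all 6 time points, and both arrays passed 1.5-fold only at 60 and 120 min. The slope was 0.27 (SE 0.05, limma adjusted p = 0.0313) and was not called without 10, 15, 60 or 120 min, with slide as a block (adjusted p = 0.882) or with no filter on dim probes (adjusted p = 0.0567). It was 0.13 with normexp and loess and 0.11 with median centring, both called. At 120 min the fold of 2.52 became 1.5 with normexp and loess and 1.39 with median centring.

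Tubb6, a broadly expressed class of beta tubulin, stood out at 120 min alone. Its brightest probe gave folds between 0.813 and 1.17 on the 10 arrays of the first 5 time points and then 2.19 and 1.54. The other probe, further along the gene, gave 0.855 to 1.13 and then 2.13 and 2.18. The probes lie at chr18:63928674-63928733 and chr18:63928978-63929037 (rn4, plus strand) and begin as follows, shown because they read different stretches of the transcript and give the same course:

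Tubb6 brightest probe: gacgagcagatgctggccatccagaacaag
Tubb6 other probe: ccacagtcaacgatggggaagaggcttttg

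With so late a step neither probe was called by the slope on log2 time. The fold of the brightest probe at 120 min was 1.72 with normexp and loess and 1.48 with median centring.

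The other tubulins moved little. Tuba1c, the smallest fold among the alpha tubulins at 120 min, had folds of 1.33 and 1.23 there and between 0.854 and 1.16 before, and its other probe, whose accessions also name Tuba1a and Tuba1b, had 1.30 and 1.18. Tubb4b, the lowest measured beta tubulin at 120 min, had 0.841 and 0.806 there after 0.928 to 1.04 as geometric means earlier. The neuronal beta tubulin Tubb3 lay between 0.881 and 1.07 over the 6 time points, and Tubb5 between 0.869 and 1.04. Tubb2b had 1.08 and 0.937 at 120 min by its brightest probe and 1.65 and 1.08, and 1.70 and 1.28, by the others; the accessions of all 3 probes also name Tubb2a. The gamma tubulin folds at 120 min were 1.06 for Tubg1 and 0.957 for Tubg2, each with 1 array above and 1 below control.

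**Figure D3:**
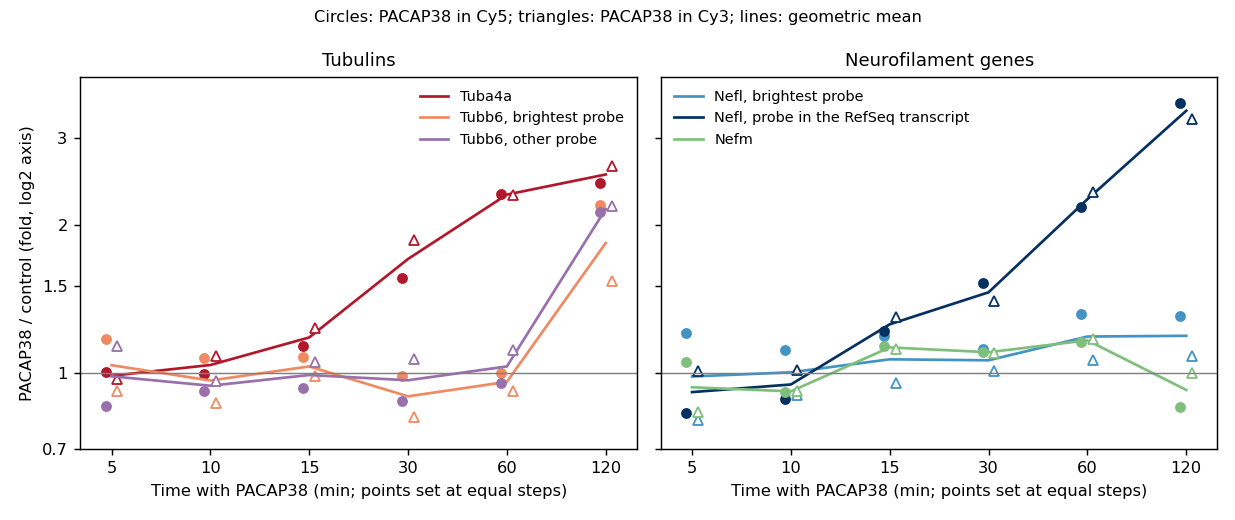
PACAP38 over control by time for 2 tubulin genes and 2 neurofilament genes, with both arrays (symbols) and their geometric mean (line) on a log2 axis. Tuba4a leaves the control level between 15 and 30 min and Tubb6 only at 120 min, and the arrays of the 2 Nefl probes do not overlap from 15 min on.

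Nefl, the light neurofilament subunit on which the other subunits assemble, gave different courses by its 2 probes. Their first 30 bases are shown because the whole result for this gene turns on which is read:

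Nefl probe in the RefSeq transcript NM_031783, chr15:47638898-47638957, plus strand: tgggtagcataaccagcggctactctcaga
Nefl brightest probe, in an Ensembl transcript, chr15:47641269-47641328, plus strand: ccatacaaataggcaaagcatttctttatc

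The first probe gave folds of 0.827 and 1.01 after 5 min, 0.886 and 1.01 after 10 min, 1.22 and 1.30 after 15 min, 1.52 and 1.40 after 30 min, 2.18 and 2.34 after 60 min, and 3.54 and 3.29 after 120 min. From 15 min on both arrays were higher than in any earlier pool, and at 120 min its intensity was 6940 in PACAP38 RNA and 2031 in control RNA. It rose by 0.43 log2 units per doubling of time (SE 0.04, limma adjusted p = 0.00923), a slope that was not called without 10 min (adjusted p = 0.0676) or with slide as a block (0.29, adjusted p = 0.878). The brightest probe, 2371 bases downstream on the chromosome, gave 1.21 and 0.801 after 5 min, 1.11 and 0.902 after 10 min, 1.19 and 0.954 after 15 min, 1.12 and 1.01 after 30 min, 1.32 and 1.06 after 60 min, and 1.30 and 1.08 after 120 min. It passed no rule, its slope was 0.07 (SE 0.02, adjusted p = 0.073), and its fold at 120 min of 1.19 was 0.977 with median centring. The gap between the probes was 1.52 log2 units at 120 min, the widest among the members with several measured probes at that time. What the probes lie in beyond the named transcripts was not looked up, since no annotation of rn4 was used here.

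No other gene of the group was past a rule at any time point. Nefm, the medium subunit, had geometric mean folds of 0.934, 0.916, 1.13, 1.1, 1.16 and 0.923 at the 6 time points in order, and the heavy subunit Nefh 0.826, 1.11, 0.955, 0.842, 0.968 and 1.06. Ina, internexin, was at 0.799 at 60 min and 0.866 at 120 min. The lowest of the group at 120 min was Prph, peripherin, the intermediate filament of peripheral neurons, with folds of 0.860 and 0.749 there and 0.950 to 1.06 as geometric means before. Gap43 lay between 0.934 and 1.16.

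Among the proteins that bind microtubules, the values at 120 min stayed between 0.849 for Map6, which makes microtubules resistant to cold, and 1.41 for Mapre1, an end-binding protein. Mapre1 had folds of 1.32 and 1.496 at 120 min, both short of the 1.5-fold rule, and geometric means of 0.921 to 1.05 before. Mapre3 had 1.74 and 0.815 there, so its arrays disagreed. Map1s had the largest fold among the structural proteins, 1.1 (1.45 and 0.841), and tau, Mapt, had 0.927 and 0.918. The 4 measured probes of Map1b, a protein of growing axons, gave 0.922, 1.24, 1.17 and 1.16. The stathmins stayed near control at 120 min, with folds of 1.04 for Stmn1, 1.09 for Stmn2 and 1.06 for Stmn3, all of them below 1 with median centring.

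Of the 10 measured mitotic kinesins, 5 were past the 1.5-fold rule in the lower direction at 120 min and 0 at the earlier time points. All 10 had a fold below 1 on both arrays at 120 min, with a median of -0.89 on the log2 scale, against -0.03 for all measured probes. Their median was -0.19 at 60 min, and all 10 were below 1 at 120 min with normexp and loess or median centring too, with medians of -0.46 and -0.67. The folds of Kif20b, a midbody kinesin, stayed between 0.795 and 1.16 through 60 min and were 0.270 and 0.365 after 120 min. Its geometric mean of 0.314 there was the lowest of the family, but with normexp and loess it was 0.508 and with median centring 0.448, and Kif20a was then lower, at 0.432 and 0.371. Kif14, which acts in cytokinesis, went from 0.812 and 0.827 at 60 min to 0.348 and 0.329, with intensities at 120 min of 280 in PACAP38 RNA and 827 in control RNA. Its geometric mean of 0.338 was 0.536 with normexp and loess and 0.474 with median centring.

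Kif20a is needed to finish cell division. Its folds were 0.980 and 1.19 after 5 min, 0.931 and 1.21 after 10 min, 0.999 and 1.17 after 15 min, 0.818 and 1.04 after 30 min, 0.691 and 0.825 after 60 min, and 0.389 and 0.432 after 120 min. It fell by 0.28 log2 units per doubling of time (SE 0.06, limma adjusted p = 0.0391), which was not called without 10, 15, 60 or 120 min, with slide as a block (adjusted p = 0.878), with no filter on dim probes (adjusted p = 0.0605) or with no trend in limma's variance (adjusted p = 0.0729). Kif23, a partner in the central spindle, had 0.453 and 0.511 at 120 min after 0.900 to 1.09 on all earlier arrays. Kif15, a spindle motor, had 0.497 and 0.405, but neither array had its PACAP38 RNA well above background, so the difference was only bounded, at least 1.1-fold lower, and the fit's adjusted p was 0.0515. Its fold of 0.449 was 0.904 with normexp and loess and 0.888 with median centring, and it was past the 1.5-fold rule with neither.

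The remaining mitotic kinesins were closer to control. Kif18a had 0.471 and 0.786 at 120 min and Kif11, the motor that separates spindle poles, 0.593 and 0.876, so neither met the rule on both arrays. A dimmer Kif11 probe gave 0.581 and 0.579, past the 1.5-fold rule, but its PACAP38 RNA was not well above background, which bounds it at 1.03-fold lower at least, and its fold of 0.580 was 0.951 with normexp and loess. The closest to control at 120 min was Kif4a, a chromosome motor, with geometric means of 0.932, 0.989, 1.01, 0.975, 0.883 and 0.827, and Kif22 and Kif2c ended at 0.771 and 0.775. Kif2a, which takes tubulin off microtubule ends and has roles in mitosis and in neurons, had 0.593 and 0.716 at 120 min after geometric means of 0.950 to 1.18. Its dimmer probe gave 0.610 and 0.532, past the rule, but with PACAP38 RNA not well above background it was at least 1.06-fold lower, and its fold of 0.570 was 0.948 with normexp and loess.

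Markers of dividing cells outside the family were read beside them. Of 9 on the array, 5 were at least 1.5-fold lower at 120 min (Ccnb1, Aurka, Plk1, Bub1b and Cdc20), against 10.3% of all measured probes, and 0 higher, with a median of -0.73 on the log2 scale. None was at least 1.5-fold lower at 60 min. Their summed intensity in PACAP38 over control RNA was 1.01, 1.03, 1.04, 0.934, 0.855 and 0.609 at the 6 time points in order, Plk1 was at 0.372 and Top2a at 0.929 at 120 min, and none of the 9 was at 0 of 12 control readings. In pooled RNA fewer dividing cells and less RNA per dividing cell cannot be told apart.

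**Figure D4:**
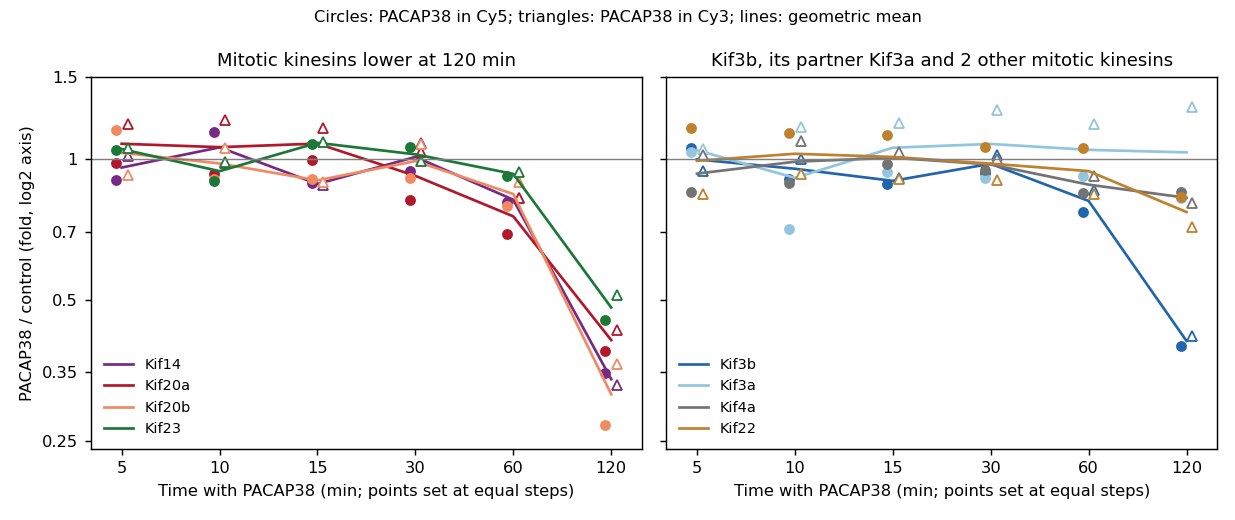
PACAP38 over control by time for 8 kinesin genes on a log2 axis; circles are the arrays with PACAP38 in Cy5, triangles those with Cy3, lines their geometric mean. Kif14, Kif20a, Kif20b and Kif23 drop between 60 and 120 min to 0.314 to 0.482, Kif3b drops to 0.408, and Kif3a, Kif4a and Kif22 stay between 0.771 and 1.03 after 120 min.

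Of the kinesins that carry cargo, 1 of 11 measured was past the rule. Kif3b, a motor subunit of heterotrimeric kinesin II, which carries vesicles and cilium components, had folds of 1.06 and 0.944 after 5 min, 0.909 and 1.00 after 10 min, 0.885 and 0.914 after 15 min, 0.935 and 1.02 after 30 min, 0.773 and 0.859 after 60 min, and 0.398 and 0.419 after 120 min. The arrays of 120 min lay apart from all 10 earlier ones. Its slope was -0.23 (SE 0.07) with an adjusted p of 0.0718, so it was not called by the fit. A dimmer Kif3b probe gave 0.516 and 0.880 after 120 min, and the fold of the brightest probe was 0.412 with normexp and loess and 0.354 with median centring.

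Kif3a, the subunit with which Kif3b pairs, had 0.828 and 1.29 after 120 min, and the alternative partner Kif3c 0.818 and 0.798. The largest fold among the transport kinesins at 120 min was that of Kif1a, a carrier of synaptic vesicle precursors, with 1.28 and 0.998, after geometric means of 0.883 to 1.1. Kif5b and Kif1c were close to each other at 0.790 and 0.795, and Kif13a, an endosome carrier, was at 0.748. Among the light chains, which attach cargo to conventional kinesin, Klc1 had the largest fold, 1.13, and Klc2 the smallest, 0.80. Kif7, a regulator of hedgehog signalling at the cilium tip, had 0.485 and 0.713 by its brightest probe and 0.598 and 0.68 by the other, and Kif26a 1.43 and 0.878.

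**Figure D5:**
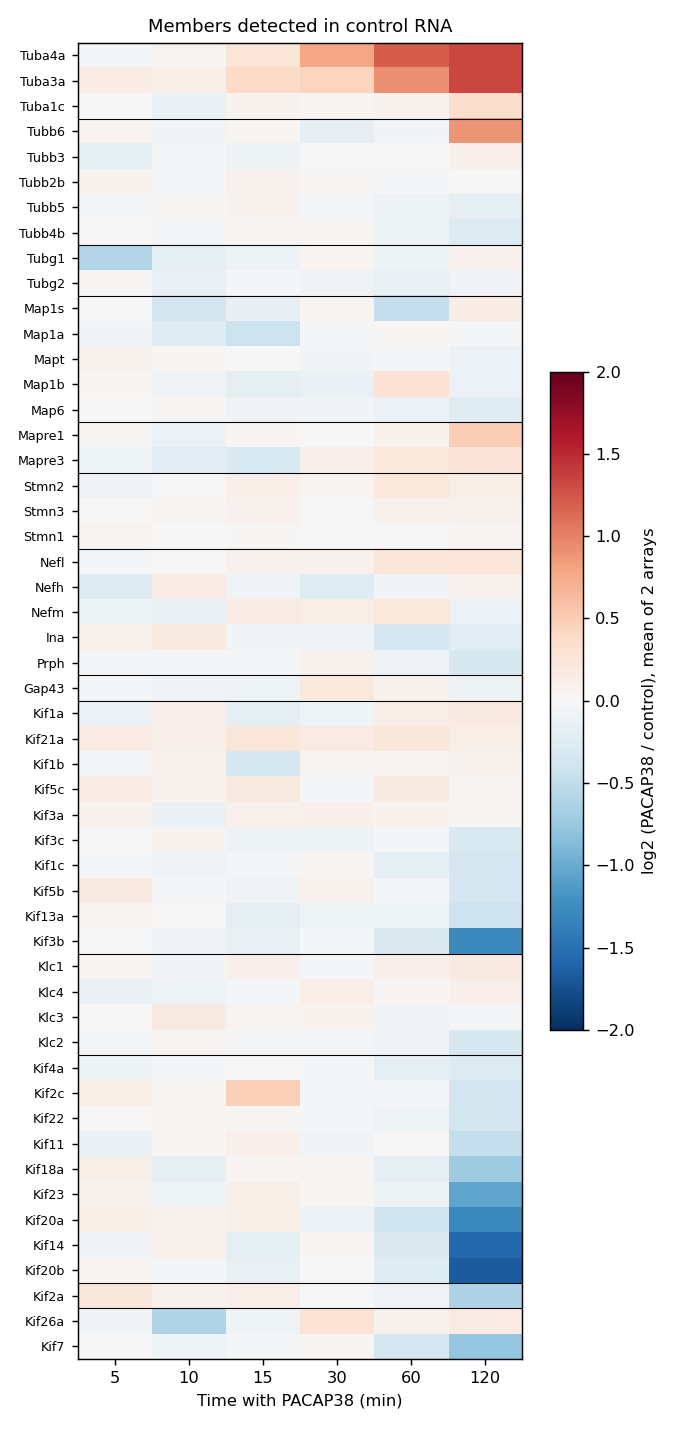
Mean log2 fold of PACAP38 over control at the 6 time points for the 52 members detected in control RNA, ordered by family (lines separate families) and by the value at 120 min. Colour is scarce up to 15 min; red is deepest for Tuba4a and Tuba3a and blue for Kif14, Kif20b, Kif20a and Kif3b at 120 min.

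The promoters of kinesins past the 1.5-fold rule were read next to their values, because elements known from mitotic genes and from cyclic AMP signalling, the main path of PACAP receptors, can be searched in them. RefSeq promoters of build GRCr8 were at hand for 54 of the 71 members, and the 250 bases before each start were searched on both strands for 4 motifs. These were the cell cycle homology element or CHR (letters TTTGAA), the CCAAT box, the cyclic AMP core (letters TGACG) and the whole cyclic AMP element or CRE (letters TGACGTCA, which contain the core). Among all 33469 promoters 16.2% held a CHR, 34.0% a CCAAT box, 18.2% a cyclic AMP core and 1.59% a CRE. Of the 5 promoters at hand for members past the 1.5-fold rule in the lower direction at 120 min, 3 held a CHR, 4 a CCAAT box, 3 the core and 1 a CRE. Of the 3 for members past it in the higher direction, 0 held a CHR, 2 a CCAAT box, 1 the core and 0 a CRE. For the 10 promoters of mitotic kinesins, 2 of them of Kif2c, the numbers were 4, 6, 6 and 1. Over the 57 promoters of all members with an entry they were 9 (15.8%), 25 (43.9%), 23 (40.4%) and 6 (10.5%). These are matches of letters and not binding sites. The 4 mitotic kinesins past the rule with an entry and Tuba4a are printed with the CHR, the CCAAT box and the core, or their reverse complements, in capitals:

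Kif20a (chr18:26504172-26504421, plus strand): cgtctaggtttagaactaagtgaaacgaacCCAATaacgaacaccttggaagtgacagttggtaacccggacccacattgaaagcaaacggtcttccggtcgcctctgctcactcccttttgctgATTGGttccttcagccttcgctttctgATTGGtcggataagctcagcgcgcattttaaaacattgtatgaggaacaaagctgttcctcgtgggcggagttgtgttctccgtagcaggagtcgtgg
Kif20b (chr1:241840766-241841015, plus strand): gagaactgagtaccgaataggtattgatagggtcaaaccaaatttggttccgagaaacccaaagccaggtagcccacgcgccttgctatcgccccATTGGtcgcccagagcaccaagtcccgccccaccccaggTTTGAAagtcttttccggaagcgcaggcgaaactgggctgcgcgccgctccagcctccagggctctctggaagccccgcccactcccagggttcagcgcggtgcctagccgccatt
Kif23 (chr8:71320585-71320834, minus strand): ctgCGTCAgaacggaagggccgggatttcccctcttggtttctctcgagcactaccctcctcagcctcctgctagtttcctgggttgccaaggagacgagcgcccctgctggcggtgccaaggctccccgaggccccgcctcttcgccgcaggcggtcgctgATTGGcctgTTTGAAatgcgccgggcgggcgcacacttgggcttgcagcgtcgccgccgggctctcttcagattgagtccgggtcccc
Kif15 (chr8:131479154-131479403, plus strand): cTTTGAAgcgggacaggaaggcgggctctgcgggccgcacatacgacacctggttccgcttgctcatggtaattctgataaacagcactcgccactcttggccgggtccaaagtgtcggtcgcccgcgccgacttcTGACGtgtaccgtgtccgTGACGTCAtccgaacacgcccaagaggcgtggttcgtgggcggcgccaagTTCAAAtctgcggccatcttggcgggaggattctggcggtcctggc
Tuba4a (chr9:84162585-84162834, minus strand): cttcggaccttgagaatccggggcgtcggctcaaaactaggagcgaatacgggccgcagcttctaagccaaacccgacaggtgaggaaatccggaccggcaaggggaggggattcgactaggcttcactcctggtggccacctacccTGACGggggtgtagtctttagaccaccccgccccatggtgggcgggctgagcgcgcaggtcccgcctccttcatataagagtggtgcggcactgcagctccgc

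The CCAAT box lies 3 times in the Kif20a window, where no CHR is found, and once each in those of Kif20b and Kif23, which also hold 1 CHR each. Kif15 has 2 CHR matches and the only CRE of the 5, and Tuba4a has 1 cyclic AMP core and no other motif.

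Other genes of the same pathway, 68 of them on the array and outside the rule, included larger changes than any member showed. Of the 54 measured at 120 min, 5 were at least 1.5-fold higher and 5 lower, close to the 7.75% and 10.3% of all measured probes, with a median of -0.08 on the log2 scale, and the slope called 10 of 57 fitted, 5 that rose and 5 that fell, against 8.37% of all probes; with slide as a block limma called 0 of 18714 probes, these genes included (662 had an unadjusted p below 0.05). Dclk1, a doublecortin-like kinase, rose to 9.05-fold (9.73 and 8.43 after 120 min, limma adjusted p = 0.0247), and the dynein regulator Ndel1 to 6.28-fold (6.91 and 5.71, adjusted p = 0.0276). Map9 rose to 2.89-fold (adjusted p = 0.0435). Pafah1b1, the dynein cofactor Lis1, was at 1.98 and the dynein heavy chain Dync1h1 at 1.58. Ttl, the enzyme that puts tyrosine back on alpha tubulin, fell to 0.477 (adjusted p = 0.0216), and the minus-end protein Camsap3 was at 0.278 and the spindle factor Tpx2 at 0.486, the latter 2 not called by the slope.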

How the data were processed

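RNA of PC12 cells treated with PACAP38 and of control cells was read on 12 Agilent whole rat genome arrays in 2 colours. The authors extracted the signals with Agilent Feature Extraction (version 11.0.1.1 in the submitters' processing notes, 12.0.3.1 in the file headers). For the deposited processed intensities the software subtracted background, removed spatial trends, balanced Cy3 and Cy5 by LOWESS and put surrogates on dim spots; mean and background intensities were deposited unnormalized. The deposited table holds the authors' log10 of Cy5 over Cy3, which was identical to the processed intensities and was not centred or turned for the dye. The deposited p-value of a spot is the software's, for its log ratio. Deposited flags, read as a score of 0 or 1, mark controls, outliers and spots well above background. The files give positions on rn4.

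From these, log2 ratios of PACAP38 to control were computed per array, with the sign turned for the dye, control spots and outlier-flagged spots left out, and spots of a probe averaged; a probe's p-value is the median of its spots. Of 111 member probes, 86 matched a RefSeq transcript by accession and all of them kept their name. Slopes were fitted with limma 3.58.1 in R 4.3.3 (trend, Benjamini-Hochberg over all probes fitted), after a test on simulated data. A lower bound sets the bright RNA against the dim RNA's signal or, where higher, the faintest one flagged well above background on that array, after loess and Aquantile. Named with values were members past a rule or fit, the largest and smallest fold of each family at 120 min, and genes whose probes disagree. The arrays of a time point share pools, so p-values measure only the spread between 6 time points. Members and lists were chosen with earlier results of these data known. Alternatives were normexp (offset 50) with loess or median centring, the deposited table, 1 array alone, other probes and filters, a slide block, untransformed minutes, and each time point left out in turn. Other steps used Python 3.11.15, pandas 2.3.3, numpy 2.4.6 and matplotlib 3.10.9. The number of arrays limits the precision. The proteome was not analysed here.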

Additional observations from a re-analysis of the deposited data

Results flagged for a closer look

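The folds of 4 member probes differed between time points by the slope on log2 minutes. Tuba4a had a slope of 0.341, the RefSeq probe of Nefl 0.428, Tuba3a 0.267 and Kif20a -0.282 log2 units per doubling of time. The later time point of each of the 3 slides exceeded the earlier one by 0.05, 0.22 and 0.60 log2 units for the Nefl probe, and by -0.03, 0.05 and 0.41 for Tuba3a. For Kif20a these differences were -0.02, -0.23 and -0.88. The part of the slide in these slopes was not tested apart from the time.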

How the results depend on the processing

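The deposited table gave the same counts as the processed intensities. The 6 members past the 2-fold rule at any time point became 3 with normexp and loess, 3 with normexp and median centring and 11 on the array with PACAP38 in Cy5 alone. The 9 members past the 1.5-fold rule at any time point became 15 and 18 on the arrays with PACAP38 in Cy5 and in Cy3 alone. The 3 members higher at 120 min became 1 with normexp and loess and 1 with median centring, and the 6 lower ones became 10 on the Cy5 array alone; these counts by direction were added after seeing the data. The 4 member probes called by the slope became 15 with median centring, 2 with no filter on dim probes, 30 with time in minutes and 0 with slide as a block, and 1 to 6 when each time point was left out. The cause of these shifts was not tested. Over all probes fitted the slope called 1567, 727 that rose and 840 that fell, against 710 and 2531 with median centring, which moved the median of all measured probes at 15 min by 0.13 on the log2 scale. Over all probes the call count was 2170 without 5 min, 1817 without 30 min, 22 without 10 min, 94 without 15 min, 92 without 60 min and 195 without 120 min, 6297 with time in minutes and 0 with slide as a block (limma, 18714 probes fitted, 662 with an unadjusted p below 0.05). No member was called by the mean over time under any of its alternatives. The number of detected members was 51 to 59 under the other criteria. For named genes the fold at 120 min stayed within 1 SD of its 2 arrays in 34 of 47 alternatives. In 13 it moved beyond, all of them under normexp or by another probe. The 34 include the deposited table, identical to the main values, and each array alone. Neither could move beyond it, since each of 2 arrays always lies within 1 SD of their mean. The slopes of the 4 called probes kept their call in 40 of 56, which also include the deposited table. No paired analysis was possible because the replicate numbers 1 and 2 only mark the dye orientation of arrays that share their pools, and averaging them leaves 1 value for each time point. Signal over background limits the dim members: 16 were measured at no time point.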
